A study of Homo sapiens with 4 samples.

Results

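H3K27ac, the acetylation of lysine 27 of histone H3, was compared between K562 cells carrying an shRNA against TFAM, hairpin 1, and K562 cells carrying the non-targeting control shRNA shNT. K562 is a human erythroleukaemia line with erythroid and some megakaryocytic features, and every library came from this line. The series held 4 samples: ChIP-seq libraries with a peak list each for the control, hairpin 1 and a second TFAM hairpin, and an input library that was not analysed here. It was set up to ask how H3K27ac is distributed when TFAM is depleted in erythroid cells. The comparison took every listed peak of the control (23413 peaks) and of hairpin 1 (23819 peaks), joined peaks that shared at least 1 bp, and gave 28591 regions. Of these, 18331 (64.1%) had a peak in both lists, 5350 (18.7%) in hairpin 1 alone and 4910 (17.2%) in the control alone. Hairpin 1 and the control were represented by 1 library each, so there is no spread between replicates, no p-value is given, and every difference is between these libraries and not between conditions. Intervals are 95% intervals that cover counting error only.

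TFAM is a DNA-binding protein of the mitochondrion that compacts mitochondrial DNA and, with the mitochondrial RNA polymerase, starts its transcription. Mitochondria supply citrate, which is exported and split to acetyl-CoA, the donor used by histone acetyltransferases. H3K27ac is laid down mainly by EP300 and CREBBP at active promoters and enhancers and removed by histone deacetylases. Promoters of widely used genes are usually rich in G+C and in CpG, whereas cell-type-specific enhancers are more often poor in G+C and carry sites for factors such as GATA1 and AP-1.

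The following 6 stretches of GRCh37 (hg19) come from regions in 1 list alone. The first pair lies just upstream of start sites whose promoter peak was listed in 1 library alone. The 200 bases upstream of MLLT10 (hairpin 1 alone, chr10:21822961-21823160, plus strand) had 82% G+C. The 200 bases upstream of SKI (control alone, chr1:2159558-2159757, plus strand) had 92% G+C. Capitals mark GGGCGG, the core of SP and KLF sites, and CCGGAAG, the core of ETS sites, on either strand; a match describes the letters and is not a bound site.
MLLT10 upstream: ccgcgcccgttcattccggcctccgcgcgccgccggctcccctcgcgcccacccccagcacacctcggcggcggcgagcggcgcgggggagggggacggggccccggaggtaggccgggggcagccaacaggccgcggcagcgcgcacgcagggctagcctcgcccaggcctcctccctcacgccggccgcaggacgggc
SKI upstream: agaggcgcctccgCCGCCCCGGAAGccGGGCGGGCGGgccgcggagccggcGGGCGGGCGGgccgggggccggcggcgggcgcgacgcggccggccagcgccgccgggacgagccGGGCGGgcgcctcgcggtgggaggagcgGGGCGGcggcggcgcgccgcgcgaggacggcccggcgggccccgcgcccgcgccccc
The SKI stretch held 7 GGGCGG matches and 1 CCGGAAG match, which overlaps a GGGCGG match by its first letter, and the MLLT10 stretch held none. This pair goes against the order over all regions, where those in hairpin 1 alone were richer in G+C and in GGGCGG than those in the control alone. Over the 20149 protein-coding start sites, 55.9% of upstream stretches of this length held GGGCGG and 10.8% held CCGGAAG.

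The other pairs follow that order: the next comes from regions in the control alone with low G+C, away from promoters, and the last pair from regions in hairpin 1 alone with high G+C. In TGANTCA, the AP-1 motif as searched here, N is any base, and the reverse complement is again TGANTCA. In the control pair capitals mark TGANTCA or AGATAA, the GATA motif. In the hairpin 1 pair they mark GGGCGG or CCGGAAG on either strand. The stretch near RAP2B lies at chr3:153007263-153007412 inside an intergenic region of 2504 bp with 36.9% G+C. The stretch near C1orf21 lies at chr1:184460779-184460928 inside an intronic region of 2023 bp with 39.2% G+C. Those near RTL1 (chr14:101293425-101293574) and NEURL1 (chr10:105427755-105427904) lie inside regions of 2455 and 2500 bp with 61.3% and 60.5% G+C. All are written on the plus strand. Each is named by the nearest protein-coding start site. That site lay 126101 bp (RAP2B), 103735 bp (C1orf21), 75332 bp (RTL1) or 173118 bp (NEURL1) from the region.
Near RAP2B, control alone: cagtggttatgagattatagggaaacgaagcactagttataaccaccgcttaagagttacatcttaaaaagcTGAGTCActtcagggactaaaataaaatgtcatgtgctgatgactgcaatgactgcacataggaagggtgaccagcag
Near C1orf21, control alone: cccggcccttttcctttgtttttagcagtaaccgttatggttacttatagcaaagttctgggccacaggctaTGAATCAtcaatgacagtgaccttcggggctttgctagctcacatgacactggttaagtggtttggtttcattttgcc
Near RTL1, hairpin 1 alone: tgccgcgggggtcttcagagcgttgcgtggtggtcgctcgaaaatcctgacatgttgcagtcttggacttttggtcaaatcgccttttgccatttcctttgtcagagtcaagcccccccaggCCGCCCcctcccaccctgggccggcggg
Near NEURL1, hairpin 1 alone: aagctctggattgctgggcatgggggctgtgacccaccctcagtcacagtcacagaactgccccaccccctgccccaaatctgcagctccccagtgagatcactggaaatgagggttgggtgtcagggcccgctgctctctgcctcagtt
Each control stretch holds 1 TGANTCA match and was placed on it. Among the 18590 regions outside promoters, 7.93% held TGANTCA and 8.64% held GGGCGG in a central stretch of the same 150 bases. These examples were picked for their sequence, and the counts over all regions follow.

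The control list covered 52.1 Mb and the hairpin 1 list 54.4 Mb, with median peak widths of 1952 and 1996 bp. They shared 39.0 Mb, which was 74.8% of the control's covered sequence and 71.7% of that of hairpin 1. Depth is not given in the sources used here, so the lengths of the lists cannot be told apart from depth. The labelled cell type was checked by defining genes: TAL1, HBZ and EPOR were marked at the promoter in both lists. GATA1 and HBG1, which K562 cells are known to express, had none in either list. No peak was wider than 8781 bp, and the score fell with width above 4 kb: peaks over 7 kb had a median score percentile of 26.6 in each list. An absent peak therefore does not show an unmarked promoter. Among the markers of other lineages, SPI1 had a promoter peak in both lists, ITGA2B in the control alone, and PF4, MPO and CD3E in neither.

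Agreement between the libraries depended on how high a peak scored. A score percentile is the rank of a peak by the authors' score within its own list. A counterpart in the other list was present for 79.0% (78.5 to 79.5) of control peaks and 77.5% (77.0 to 78.1) of hairpin 1 peaks. Among the lowest-scoring 10%, 56.9% of control peaks and 66.4% of hairpin 1 peaks had no counterpart. Between percentiles 50 and 60 the shares were 9.65% and 8.31%. Among the highest-scoring 10%, 11 control peaks (0.470%) and 3 hairpin 1 peaks (0.126%) were without one. Above percentile 99, all 239 hairpin 1 peaks had a control counterpart, which allows a share without one of up to 1.53%, while 3 of 235 control peaks had no counterpart. In the higher-scoring 50%, 403 control peaks (3.44%) but 292 hairpin 1 peaks (2.45%) had no counterpart, the reverse of the order in the whole lists.

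**Figure D1:**
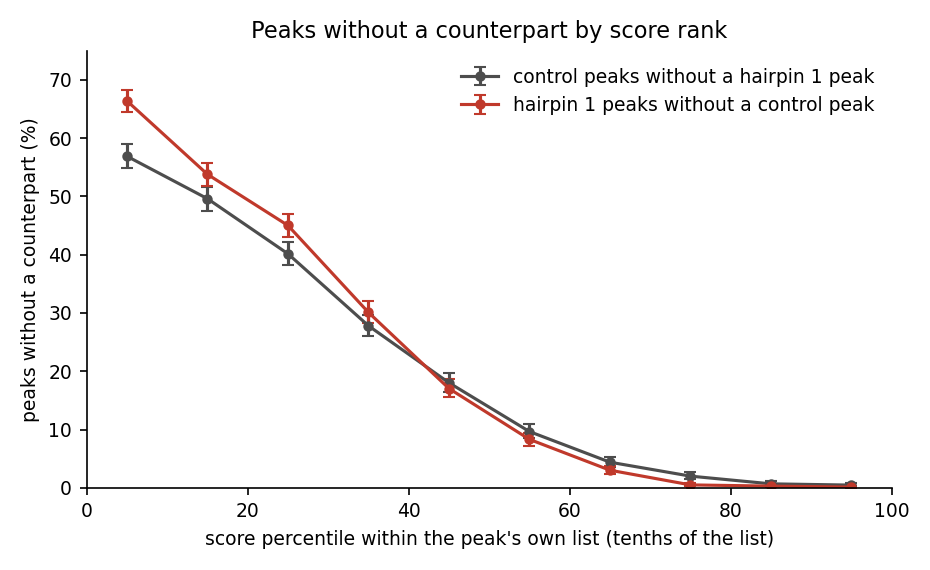
Share of peaks (percent, y axis) without a counterpart in the other list, by score percentile within the peak's own list (x axis, steps of 10), with exact 95% intervals. Both lines fall from over 50% in the lowest 10% to under 1% in the highest; hairpin 1 starts above the control (66.4% against 56.9%).

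Regions in 1 list alone were narrow, low in rank and mostly away from promoters. Their median width was 1053 bp in hairpin 1 and 1059 bp in the control, against 2294 and 2203 bp where both lists had a peak. Their median score percentiles were 18.4 and 19.6, against 61.2 and 60.1 for shared regions. A promoter, meaning a start site with 1 kb on each side, was touched by 10.2% (9.44 to 11.1) of hairpin 1 regions, 8.0% (7.26 to 8.80) of control regions and 49.4% of shared regions. Introns held 41.0% and 39.7% of them, and 37.2% and 43.0% were intergenic. The median distance to a protein-coding start site was 26400 bp for hairpin 1 regions, 43390.5 bp for control regions and 1971 bp for shared regions. The control's own regions thus lay farther from protein-coding start sites than those of hairpin 1.

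Base composition separated these classes. The median G+C was 48.5% (48.2 to 48.9) in hairpin 1 regions, 42.4% (42.1 to 42.7) in control regions and 50.6% in shared regions. With all regions divided into 5 groups of like size by G+C, the lowest group (24.9% to 41.8%) held 842 regions in hairpin 1 alone and 2309 in the control alone. The second group held 1309 and 1088, and the highest group (57.4% to 84.8%) held 1027 and 431. Hairpin 1 therefore made up 26.7% of the regions in 1 list alone in the lowest group and 70.4% in the highest. The order held at every rank up to percentile 75: below percentile 25 the medians were 47.8% and 42.2%, and between 50 and 75 they were 52.1% and 43.8%. Above percentile 75 it turned, at 50.9% for 16 hairpin 1 regions and 53.4% for 42 control regions, with overlapping intervals.

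Shared regions followed the same gradient by width. Their width is given as the log2 ratio of base pairs covered in hairpin 1 to those covered in the control, so that a positive value means wider in hairpin 1. Over the 18331 shared regions the median ratio was 0.06 (0.05 to 0.06, quartiles -0.21 and 0.34), with medians of 2203 bp in the control and 2294 bp in hairpin 1. By G+C group the median ratio was -0.30, -0.06, 0.01, 0.10 and 0.20 from lowest to highest. Promoters ran from -0.34 to 0.18 and regions outside promoters from -0.29 to 0.29, so the gradient was present in each. Whether it came from the cells or from library preparation and sequencing was not tested. Chromosomes differed too, not always in the order of their G+C. Hairpin 1 made up 67.8% of the regions in 1 list alone on chromosome 22 and 63.3% on chromosome 19, where regions had a median G+C of 54.4% and 56.4%. It made up 42.3% on chromosome 3 (46.9% G+C) and 43.6% on chromosome 4 (44.9%). Chromosome 21 had a share of 65.8% at 48.1% G+C, chromosome 17 one of 53.0% at 52.5%, and chromosome 15 one of 45.0% at 48.6%.

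**Figure D2:**
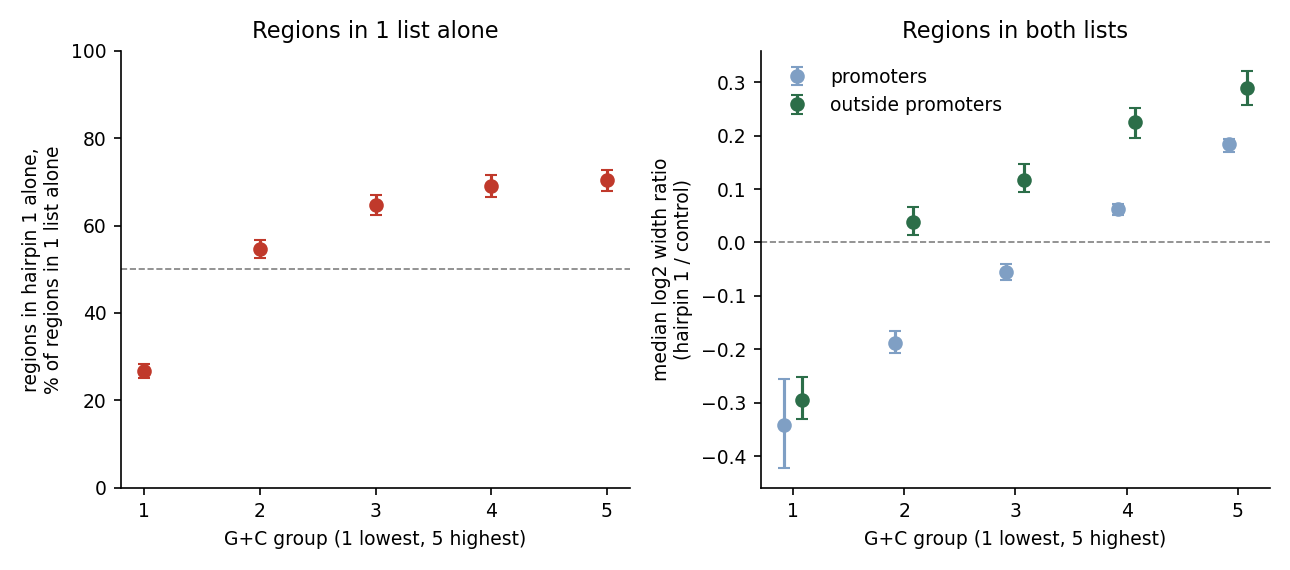
Left, regions in hairpin 1 alone as a percent of all regions in 1 list alone, and right, median log2 width ratio of shared regions at promoters and outside them, by G+C group (x axis, 1 lowest to 5 highest) with 95% intervals. Hairpin 1 regions go from 26.7% to 70.4% of the regions in 1 list alone, and both width series rise with G+C from below to above 0.

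AP-1 is a dimer of FOS and JUN family proteins that binds many enhancers. Its motif was searched as TGANTCA, with any base at N, in the central 500 bp of each region outside promoters. It was found in 26.6% (25.3 to 27.9) of regions in the control alone, 18.2% (17.2 to 19.4) in hairpin 1 alone, 24.2% in shared regions and 23.2% of all such regions. Because the motif is itself low in G+C, the shares were set side by side within G+C groups. In the lowest group they were 28.2% for the control, 28.9% for shared and 20.3% for hairpin 1 regions. In the second group they were 28.8%, 26.2% and 20.8%, in the third 25%, 26.4% and 19.4%. The hairpin 1 interval lay below both of the others in the lowest 2 groups, but in the highest group the shares were 13.8%, 11.5% and 11.3% with overlapping intervals. Control and shared regions had overlapping intervals in all 5 groups, and hairpin 1 regions had the lowest share in each.

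Rank entered as well. In the 2 lowest G+C groups together, 26.8% of control regions and 19.5% of hairpin 1 regions below percentile 25 held the motif, and 31.7% and 22.5% did so between 25 and 50. Above percentile 50 the shares were 28.2% of 227 and 28.6% of 63 regions, so no difference was detectable there. In groups 3 to 5 together the shares were 21.3% and 16.1% below percentile 25, and 23.9% and 16.4% between 25 and 50 (control first). Above percentile 50 the order there turned, at 14.3% (7.61 to 23.6) of 84 and 20.9% (14.3 to 29.0) of 129 regions, with overlapping intervals. The GATA motif AGATAA, read on both strands and bound by the erythroid factor GATA1, gave another picture. It was in 35.8% of control regions, 28.4% of hairpin 1 regions and 31.9% of shared regions outside promoters, with 32.0% of all. Within the lowest G+C group the shares were 43.9%, 43.1% and 46.7%, and within the second 35.7%, 36.8% and 38.8%. The motif GGGCGG, also read on both strands, was in 11.2% of control, 18.6% of hairpin 1, 24.3% of shared and 19.6% of all these regions, and in the highest G+C group in 56.0%, 58.1% and 68.9% of the first 3. For GATA and GGGCGG the intervals of control and hairpin 1 regions overlapped within each of the 5 groups. Motifs of NRF1 and the E-box were also searched outside promoters, and their intervals overlapped likewise. The ETS motif CCGGAAG was in 3.06% of control and 3.56% of hairpin 1 regions. In G+C group 4 the shares were 9.31% (6.57 to 12.7) and 4.41% (3.17 to 5.95), control first. Those intervals lay apart, whereas the ETS intervals of control and hairpin 1 regions overlapped in the other groups.

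**Figure D3:**
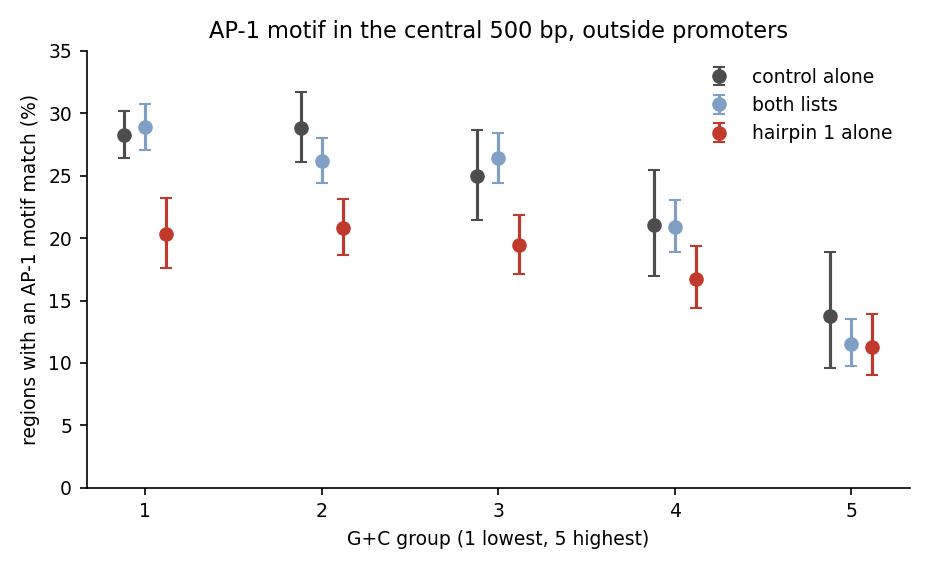
Percent of regions outside promoters with a TGANTCA match in the central 500 bp (y axis) by G+C group (x axis), for regions in the control alone, in both lists and in hairpin 1 alone, with exact 95% intervals. Hairpin 1 regions lie below the other classes in groups 1 to 3 and close to them in group 5.

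At the gene level, the promoter was marked in both lists at 10388 of 20149 protein-coding genes (51.6%) and in neither at 8685. A promoter peak was listed in hairpin 1 alone, called gained, at 640 genes (3.18%) and in the control alone, called lost, at 436 genes (2.16%). Their median percentiles were 30.3 and 33.2, and above percentile 75 there were 24 genes of each kind. A peak of the other list still lay within 5 kb of the start site at 139 gained and 58 lost genes. Where both lists had a peak, it was at least 2-fold wider in hairpin 1 at 288 genes (2.77%) and at least 2-fold narrower at 102 (0.982%). TFAM itself had a promoter peak of 2983 bp in the control and 2787 bp in hairpin 1, at percentiles 91.6 and 89.6; an shRNA acts on the transcript, so this does not measure the knockdown.

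The gained promoter of highest rank was that of MLLT10, a cofactor of the H3K79 methyltransferase and a fusion partner in acute leukaemia. The control had no peak there, and hairpin 1 had 3851 bp at percentile 97.0 (chromosome 10, 21821578 to 21825428). A second hairpin 1 peak of 6299 bp lay within 15 kb upstream, again with none in the control. PCM1, a scaffold of the granules around the centrosome, had 2875 bp at percentile 97.0 in hairpin 1 and none in the control. COLGALT2, a collagen galactosyltransferase, followed with 3230 bp at 95.8 (chromosome 1, 184004438 to 184007667), CCDC71L with 5030 bp at 89.0 (chromosome 7, 106297210 to 106302239) and FAM20B, a xylose kinase, with 3938 bp at 87.0 (chromosome 1, 178993116 to 178997053).

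Transcription and chromatin regulators were also among them. E2F3, an activator of S-phase genes, had no control peak and 5646 bp in hairpin 1 at percentile 85.6 (chromosome 6, 20400723 to 20406368). NR4A2, an orphan nuclear receptor induced as an immediate early gene, had 5031 bp at 83.4 (chromosome 2, 157188533 to 157193563) with a second hairpin 1 peak of 6258 bp upstream. NIPBL, which loads cohesin, had 4867 bp at 83.1 (chromosome 5, 36874424 to 36879290). VAPA, a tether of the endoplasmic reticulum, had 5571 bp at 85.1 (chromosome 18, 9912486 to 9918056). Each of these promoters lay in a region without any control peak. At PSD, GJD3, SPAG8, CHD9NB, ENSG00000257390 and ADGRE2, the other gained promoters among the 15 named by rank, the region had a control peak too. Within 5 kb of the start site the control had 3518 bp at PSD, 3343 bp at SPAG8 and 1124 bp at GJD3, so the call there rests on which peak edge reached the 1 kb window. The list of the second hairpin had a promoter peak at MLLT10 (4050 bp), PCM1 (7925 bp), CCDC71L (6521 bp), NR4A2 (6253 bp), NIPBL (6534 bp) and VAPA (8559 bp), and none at COLGALT2, FAM20B or E2F3.

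Lost promoters reached higher control ranks. YDJC, a gene of a predicted carbohydrate deacetylase, had 3257 bp in the control at percentile 99.996 (chromosome 22, 21982071 to 21985327) and no hairpin 1 peak within 5 kb of the start site. SLC25A1, the mitochondrial citrate carrier, had 3379 bp at 99.9 (chromosome 22, 19164223 to 19167601) and none in hairpin 1. A further control peak of 3258 bp began 5086 bp downstream of its start site, also without a counterpart, and the nearest hairpin 1 peak, of 1954 bp, lay upstream. FASTK, a founding member of a family of mitochondrial RNA regulators, and TMUB1 shared 1 control peak of 4915 bp at 93.5 (chromosome 7, 150776587 to 150781501). TUBB4B, a beta-tubulin, had 3736 bp at 92.3 (chromosome 9, 140133799 to 140137534) and PGP, a phosphoglycolate phosphatase, 4221 bp at 92.3 (chromosome 16, 2262943 to 2267163).

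MAZ, a zinc-finger factor that binds G-rich promoters, had 5368 bp in the control at percentile 89.1 (chromosome 16, 29815465 to 29820832) and nothing in hairpin 1 within 5 kb. The neighbouring peaks of the MAZ locus were in both lists, with 2495 bp in the control and 2635 bp in hairpin 1 downstream. SKI, a repressor of TGF-beta signalling, had 3654 bp at 88.6 (chromosome 1, 2157880 to 2161533) and ASB1, an adaptor of ubiquitin ligases, 2570 bp at 88.9 (chromosome 2, 239334278 to 239336847). Genes of ribosomal proteins were on the list with RPL23A (4694 bp at 81.8, chromosome 17, 27046077 to 27050770) and RPS2, whose peak of 4252 bp at 78.0 (chromosome 16, 2012543 to 2016794) also reached RNF151. PI4KA, a phosphatidylinositol kinase, and SNAP29, a vesicle fusion protein, shared a peak of 5355 bp at 80.5 (chromosome 22, 21210290 to 21215644), and DDX60L had 2439 bp at 84.2. At AC009065.1, PPP1R35 and C4B hairpin 1 had 2922, 1702 and 2337 bp within 5 kb of the start site; C4B has a near-identical copy, and only reads with 1 match in the genome were retained. The second hairpin had a promoter peak at YDJC (7714 bp), FASTK (7128 bp), TUBB4B (3882 bp), PGP (8177 bp), MAZ (8193 bp) and RPL23A (4923 bp), and none at SLC25A1, SKI or PI4KA. Of the 42 control regions above percentile 75, 12 (28.6%) had a neighbour of the same class within 5 kb, against 5.94% of those below percentile 25; the SLC25A1 peaks are such neighbours.

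**Figure D4:**
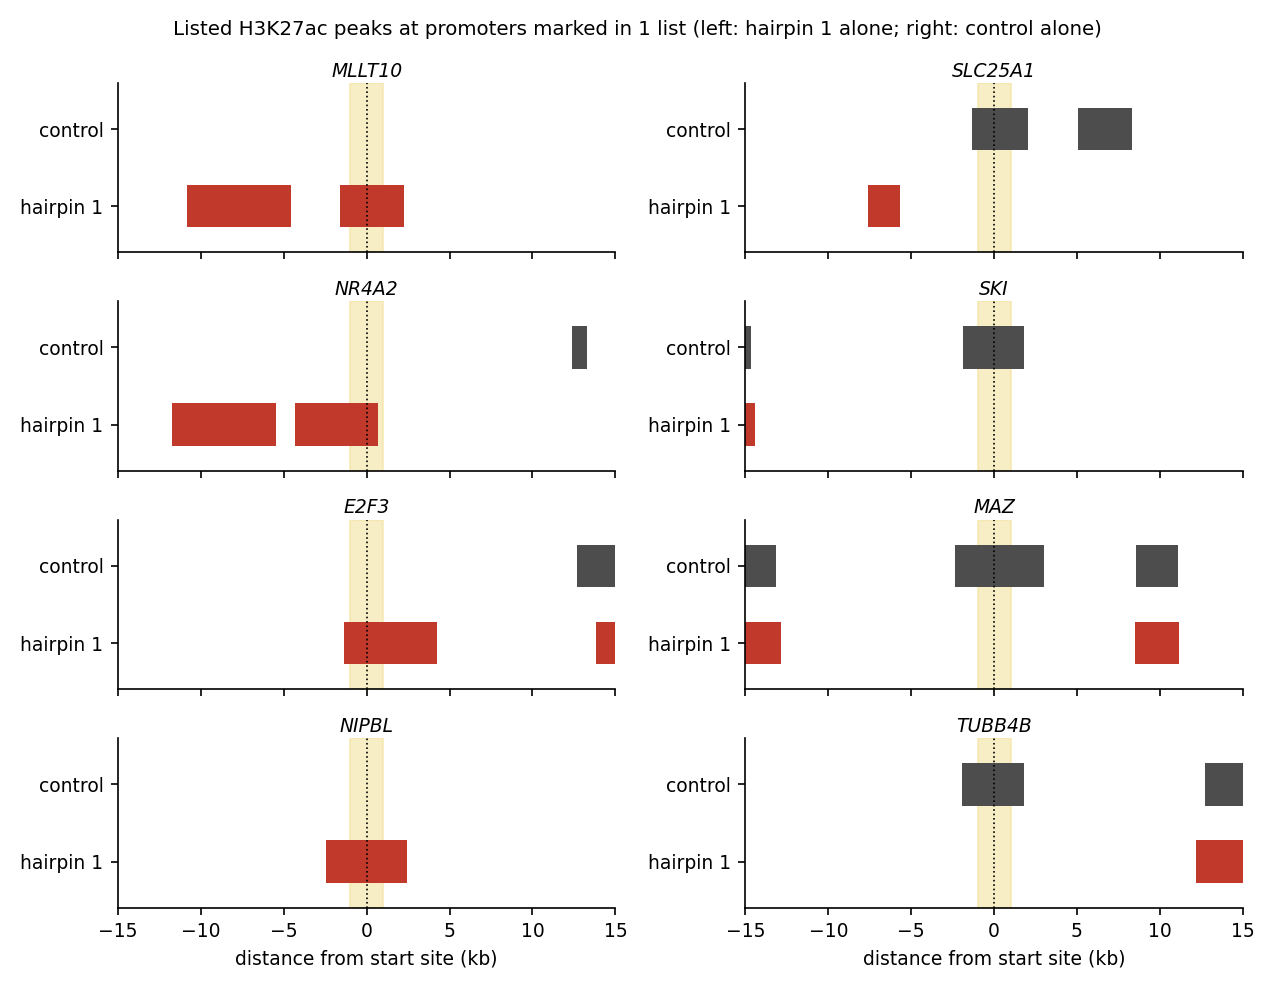
Listed peaks (bars) of the control (upper track) and hairpin 1 (lower track) from 15 kb upstream to 15 kb downstream of the start site in the direction of transcription (x axis, kb), with the 1 kb window on each side shaded. MLLT10, NR4A2, E2F3 and NIPBL have a peak over the window in hairpin 1 alone, SLC25A1, SKI, MAZ and TUBB4B in the control alone, and neighbouring peaks at MAZ and TUBB4B are in both.

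Outside promoters of protein-coding genes, high-ranked regions were fewer in hairpin 1 than in the control. A hairpin 1 region of 2455 bp at percentile 71.6 (chromosome 14, 101292273 to 101294727), which holds the RTL1 stretch printed early on, covered the annotated start of MEG3, a maternally expressed long non-coding RNA. Regions are named by the nearest protein-coding start site, which can be far away. Intronic ones were nearest to SPATA5 (1454 bp at 72.2), METRNL (2682 bp at 69.7) and AL590452.1 (4162 bp at 76.9). Their distances to that site were 21673, 5897 and 17824 bp. Intergenic ones were nearest to TRIB2 (4368 bp at 69.8), HS6ST1 (3713 bp at 68.1) and PABPC4L (3281 bp at 68.0). Those distances were 437145, 122087 and 124687 bp. The control's own regions reached percentile 99.7 next to SLC25A1, 93.5 near OR10H1 (3993 bp, chromosome 19, 15945752 to 15949744) and 92.0 near CNR1 (2261 bp, chromosome 6, 89129355 to 89131615). The start sites of OR10H1 and CNR1 lay 19278 and 253289 bp away. An exonic region (4146 bp at 91.9) lying 35860 bp from the TRIM11 start site was listed in the control alone. So was an intergenic region (3671 bp at 89.4) lying 47018 bp from that of C2orf42. A region of 1064 bp at 89.0 began at position 23614 of chromosome 7, 168292 bp from the FAM20C start site. Annotated starts of long non-coding RNAs lay within 1 kb of the regions named by SLC25A1 (LINC01311), OR10H1 (LINC01764), CNR1, TRIM11, TRIB2 and PABPC4L. None did so at SPATA5, METRNL, AL590452.1, HS6ST1, C2orf42 or FAM20C.

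Promoters marked in both lists mostly differed little in width. Among the 8586 with peaks in the higher-scoring 50% of both lists the median log2 ratio was 0.03, with 94 at least 2-fold wider and 30 at least 2-fold narrower in hairpin 1. E2F1, the founding member of the E2F family, had 1768 bp in the control and 5491 bp in hairpin 1 (log2 ratio 1.63). The shared start region of BRCC3, a deubiquitinase, CMC4 and MTCP1 had 979 and 3491 bp (1.83). RPS6KA4, the histone kinase MSK2, had 1763 and 5187 bp (1.56). ZDHHC18, NECAP2, PHRF1, ACTR1A with SUFU, and CCDC136 made up the rest of the widest 8, with ratios of 1.63 to 1.5. Wider did not mean higher in rank: the percentile fell from 93.0 to 58.0 at E2F1 and from 83.2 to 68.6 at RPS6KA4. It rose from 58.4 to 64.4 at BRCC3 and from 61.6 to 79.6 at CCDC136.

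The promoters that were narrower in hairpin 1 included FOS, a subunit of AP-1, with 3205 bp in the control and 1143 bp in hairpin 1 (log2 ratio -1.49, chromosome 14, 75743344 to 75746548 in the control). ALDH5A1, the mitochondrial succinate semialdehyde dehydrogenase, had 3216 and 1165 bp (-1.46). FNDC3A had 5896 and 2367 bp (-1.32), while TEX9, ANGEL1 and ASPH had ratios of -1.58, -1.51 and -1.35. Rank went both ways here too, with percentiles of 62.9 and 56.1 at FOS and of 57.3 and 97.4 at FNDC3A. In the list of the second hairpin the FOS peak spanned 3626 bp and that of E2F1 5593 bp.

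Lists of genes for red cells, mitochondria, metabolism and stress were described by their counts, beside the values over all genes given above (a promoter peak in both lists at 51.6%, gained 3.18%, lost 2.16%, median log2 ratio 0.05). Of the 10388 genes marked in both, 5871 were wider and 4501 narrower in hairpin 1. The 22 lists held 355 genes, of which 281 had a promoter peak in both lists, 13 gained one, 10 lost one and 51 had none. Erythroid regulators kept most of theirs: of 14 transcription factors 8 were marked in both, GFI1B was lost, and GATA1, GATA2, KLF1, NFE2 and BCL11A had none in either list. GFI1B, a repressor required for red cells and platelets, had 7351 bp in the control at percentile 2.51. TAL1, the core erythroid activator, had 5929 and 5523 bp, ZFPM1, the GATA1 cofactor, 5997 and 6578 bp, and MYB 6635 and 7122 bp. Of the 10 globin genes 3 were marked in both lists, HBA2 was gained (1638 bp at percentile 22.1) and 6 had none; HBA2 is nearly identical to HBA1.

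Of 11 heme synthesis genes 1 was lost and 1 gained, both at middle rank. ALAS2, the erythroid enzyme of the first step, had a promoter peak of 2506 bp in the control at percentile 34.9 and none in hairpin 1. FECH, which inserts iron in the last step, had none in the control and 2480 bp in hairpin 1 at 47.2. The second hairpin had a promoter peak of 6417 bp at ALAS2 and none at FECH. ALAS1, the other enzyme of the first step, had 1666 and 2047 bp. With it, 9 genes of the pathway were marked in both lists, with a median log2 ratio of 0.19; UROD had 4387 and 4961 bp. Of 12 iron genes 9 were marked in both, SLC11A2, the divalent metal transporter, was gained (7669 bp at 28.4), and TFRC, the transferrin receptor, had 7012 and 5799 bp. Red cell membrane genes were marked in both at 16 of 20. ANK1, ankyrin, was gained with 6669 bp at 63.0 and SLC4A1, band 3, with 1917 bp at 16.9. GYPB, glycophorin B, was narrower in hairpin 1 (4749 and 2824 bp, log2 ratio -0.75). EPB41, protein 4.1, was wider (1650 and 3040 bp, 0.88). The list as a whole had 8 wider and 8 narrower promoters and a median ratio of 0.04.

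Markers of other blood lineages lay mostly without a promoter peak. Of 14 myeloid markers 3 were marked in both lists and 3 were gained, all at low or middle rank: ELANE, neutrophil elastase (1263 bp at 25.3), CSF3R, the G-CSF receptor (2316 bp at 45.8), and ITGAM, CD11b (1800 bp at 32.7). The 3 in both were wider in hairpin 1, with SPI1, the factor PU.1, at 2693 and 3788 bp (log2 ratio 0.49), CD33 at 1063 and 2428 bp (1.19) and LYZ at 1739 and 1931 bp (0.15). The mean length covered within 5 kb over the list was 616 bp in the control and 1636 bp in hairpin 1. Of 12 lymphoid markers none was marked in both; CD3D and CD3G were gained through 1 peak of 2025 bp at 42.8 and CD79A through 2645 bp at 52.7, with list means of 412 and 1015 bp. Of the gained markers, the second hairpin had a promoter peak only at CSF3R (1355 bp). It had none at ELANE, ITGAM, CD3D, CD3G or CD79A, with 3551 bp within 5 kb of the CD3D start site. MPO and CD3E, defining genes checked first, had no promoter peak. Of 13 megakaryocyte markers 4 were marked in both and ITGA2B, platelet integrin alpha-IIb, was lost from 6418 bp at 30.7. Within 5 kb of the ITGA2B start site hairpin 1 still had 2035 bp, against 8040 bp in the control. The second hairpin had a promoter peak of 2043 bp there. Whether cells of another lineage took part was not tested.

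Mitochondrial genes were nearly all marked in both libraries. This held for 16 of 18 genes of mitochondrial DNA maintenance and transcription, with a median log2 ratio of 0.05. POLG, the mitochondrial DNA polymerase, had 2122 and 2205 bp, POLRMT, the RNA polymerase, 2715 and 2986 bp, and TWNK, the helicase, 1845 and 2192 bp. TOP1MT, the mitochondrial topoisomerase, was the exception in width (1480 and 3786 bp, 1.36), while its percentile fell from 75.5 to 51.8. Of 26 complex I and II genes 24 were marked in both (median -0.06). NDUFC2, a complex I subunit, was lost from 4506 bp at percentile 75. At NDUFC2 the second hairpin had a promoter peak of 4549 bp. SDHC was narrower in hairpin 1 (3581 and 1991 bp, -0.85). Of 30 genes of complexes III to V 29 were marked in both (median 0.04). At ATP5F1D, which encodes a subunit of ATP synthase, only the control listed a promoter peak, of 4054 bp at 58.0. The second hairpin, too, had no promoter peak at ATP5F1D. All 13 mitochondrial chaperones and proteases were marked in both (median 0.07), with LONP1 at 3879 and 4079 bp and HSPA9 at 3814 and 3287 bp.

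Lists of central carbon metabolism differed in their medians. All 18 genes of the tricarboxylic acid cycle were marked in both, 12 of them wider (5871 of 10388 over all genes), with a median log2 ratio of 0.18; DLAT had 2945 and 3481 bp and CS, citrate synthase, 4356 and 4327 bp. Glycolysis had 15 of 16 in both, 12 wider, and a median of 0.30. ENO1, enolase, had 4678 and 7895 bp (0.76), PFKL, phosphofructokinase, 2107 and 2869 bp (0.45) and TPI1 2120 and 3012 bp (0.51). The ENO1 percentile fell from 95.8 to 42.2, while that of PFKL went from 95.3 to 99.1. LDHB and the glucose transporter SLC2A3 were narrower (-0.68 and -0.80), and HK1, hexokinase, was lost from 6517 bp at 65.9. At HK1 the second hairpin had a promoter peak of 8032 bp. The start sites of the glycolytic genes had a median G+C of 63.2%, against 57.5% over all genes marked in both. With the median of genes of like promoter G+C subtracted, a value added after the ratios were seen, glycolysis stood at 0.15 and the tricarboxylic acid cycle at 0.15. Of 10 genes that supply acetyl-CoA outside the mitochondrion 8 were marked in both (4 wider, 4 narrower, median -0.01), SLC25A1 was lost, and ACLY, which splits citrate, had 2500 and 2570 bp and FASN 4256 and 5495 bp. Of 17 genes of ketone body and fatty acid oxidation 13 were marked in both (6 wider, 7 narrower) and BDH2, a dehydrogenase, was gained with 539 bp at 15.1. CPT2 and ACADVL were wider (0.94 and 0.82) among a median of -0.04.

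The enzymes that set and remove the mark were listed in both libraries with few exceptions. All 13 histone acetyltransferase genes were marked in both, with a median log2 ratio of -0.04; EP300 had 3223 and 2806 bp and CREBBP 2465 and 2438 bp. Of 18 deacetylases and sirtuins 16 were marked in both (median 0.17, or 0.03 with genes of like promoter G+C subtracted). HDAC6 was lost from 6565 bp at 46.8 and HDAC9 from 2505 bp at 43.6. At HDAC6 the second hairpin had a promoter peak of 4481 bp, and at HDAC9 it had none. HDAC3 was wider, with 3371 and 6741 bp (1.0) at percentiles 67.8 and 38.8, as were HDAC11 (0.77), HDAC7 (0.75) and SIRT6 (0.64). Of the 16, 11 were wider and 5 narrower, among them SIRT4 (-0.43), SIRT5 (-0.33) and SIRT1 (-0.21).

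The integrated stress response, the programme of ATF4 that mitochondrial stress can switch on, had narrower peaks at several of its targets. All 20 genes had a promoter peak in both lists, 12 narrower and 8 wider in hairpin 1 (4501 of 10388 narrower over all genes). The median log2 ratio was -0.12, or -0.17 with genes of like promoter G+C subtracted. By the latter value globin genes (3 marked in both) stood at -0.44 and immediate early factors at -0.18. DDIT3, the factor CHOP, had 7052 bp in the control and 4108 bp in hairpin 1 (-0.78), and TRIB3, a pseudokinase induced by it, 4653 and 2912 bp (-0.68). ATF3 (-0.54), CHAC1 (-0.50), DDIT4 (-0.43), ASNS (-0.41) and GDF15 (-0.35) were narrower too. ATF4 itself was wider (4146 and 5448 bp, 0.39), as were MTHFD2 (0.43) and SESN2 (0.23). Score rank did not always follow width: percentiles rose at DDIT3 (59.8 to 70.4), TRIB3 (70.1 to 85.9) and GDF15 (55.8 to 73.8). They fell at ATF3 (83.0 to 56.3) and ATF4 (84.8 to 70.9). In the second hairpin the covered lengths were 5066 bp at DDIT3, 3926 bp at TRIB3 and 6327 bp at ATF4.

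Growth and death genes went both ways. Of 19 cell cycle regulators 18 were marked in both, 9 wider and 9 narrower, and CCND3, cyclin D3, was lost from 6624 bp at 49.2. Beside E2F1, E2F2 was wider (2739 and 4140 bp, 0.60), while CDKN1A, the inhibitor p21, was narrower (3296 and 1423 bp, -1.21), as was CDK1 (4520 and 2395 bp, -0.92). In the BCL2 family 12 of 15 were marked in both, with BAK1 wider (0.97) and the mitophagy receptor BNIP3L narrower (-0.84). Of 16 immediate early factors 14 were marked in both and NR4A2 was gained. FOS (-1.49), FOSL2 (-0.69) and NR4A3 (-0.60) were narrower, FOSL1 (0.28) and JUN (0.22) wider. The median of the immediate early factors was -0.02, or -0.18 with genes of like promoter G+C subtracted.

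**Figure D5:**
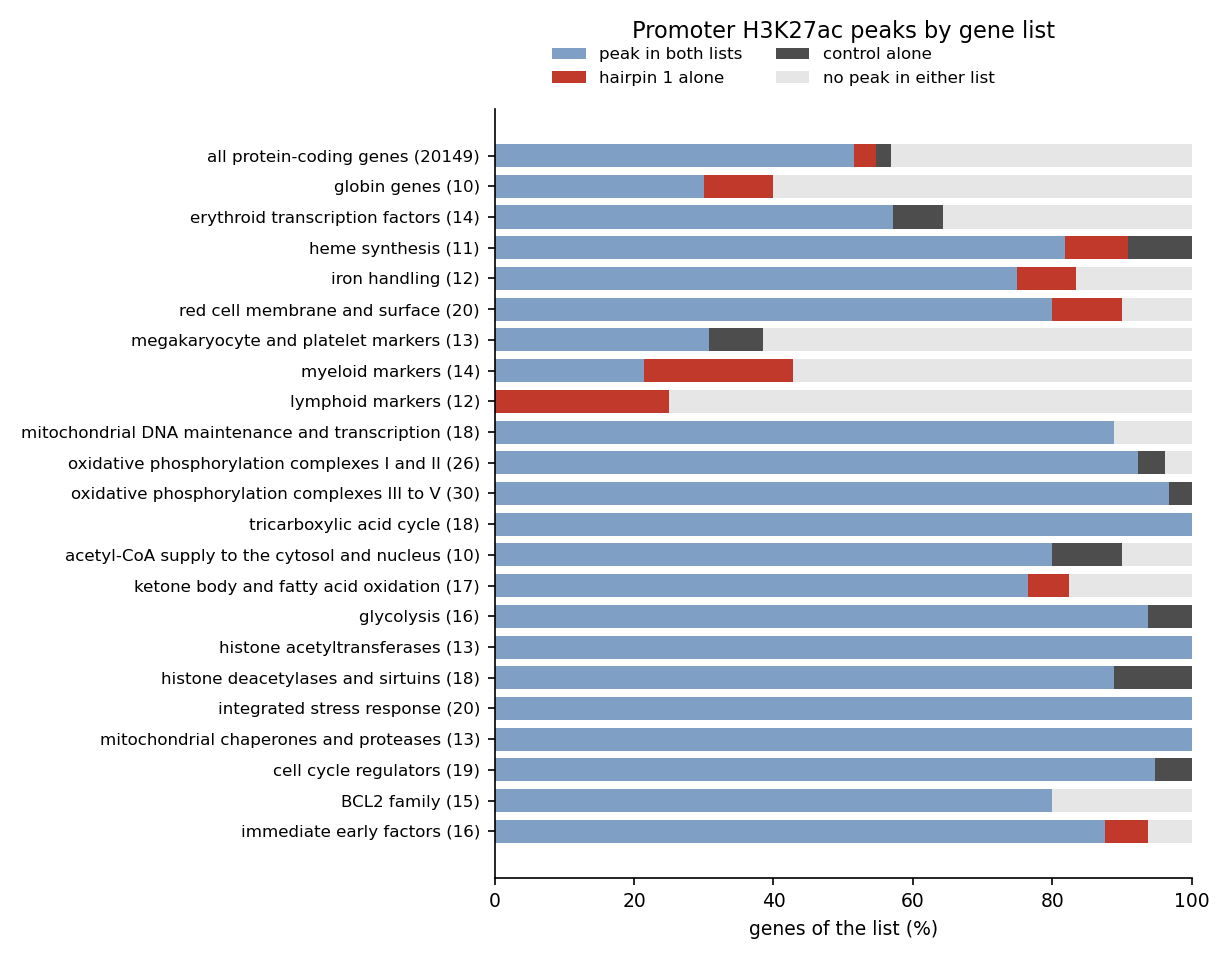
Percent of genes (x axis) with a promoter peak in both lists, in hairpin 1 alone, in the control alone or in neither, for all protein-coding genes and each gene list (rows, number of genes in brackets). Gained promoters take a larger share than the 3.18% of all genes among myeloid (3 of 14) and lymphoid (3 of 12) markers. The 3.18% counts 10824 genes with a control peak, which could not gain one, and most of these markers had no control peak. Among genes without a control peak 640 gained one and 8685 did not, against 3 and 8 myeloid and 3 and 9 lymphoid markers. CD3D and CD3G share 1 gained peak. Mitochondrial and metabolic lists are mostly marked in both.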

How the data were processed

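H3K27ac ChIP-seq peak lists of 1 control library (shNT) and 1 library of TFAM hairpin 1 were compared; that of hairpin 2 is set beside single genes only. Per the labels' protocols, reads that fitted 1 place in hg19 were kept; Bowtie 0.12.7, Picard and hg19 are named without roles, per the submitters' processing notes. Peak names carry a MACS prefix, per the files. The caller's version, its threshold, its use of input and the depth are not given in the sources used here. Each deposited list gives start, end and the authors' score, used only as a rank within its list (percentile).

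Peaks sharing at least 1 bp were joined into regions. Genes and start sites came from GENCODE release 44 mapped to GRCh37 (20149 protein-coding genes, 19869 with a canonical start). A region was promoter (start site with 1 kb on each side), exon, intron or intergenic, in that order. Widths are log2 ratios of covered base pairs. Shares carry exact Clopper-Pearson 95% intervals and medians order-statistic intervals. Motifs were searched on both strands, and 32 regions on masked sequence had no G+C value.

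Named were the 15 gained and 15 lost promoters of highest percentile, the 8 other regions of highest percentile in each list alone, the 8 widest and 8 narrowest ratios in the higher-scoring 50% of both lists, members of gene lists that gained or lost a promoter peak or otherwise the 2 with most covered sequence, and TFAM. A few of these are not reported here. Other list members were chosen after their values were seen. Members and lists were chosen with earlier results of these data known. The code was tested on simulated data. Alternatives are given in the closing section. Tools were matplotlib 3.10.9, SciPy 1.17.1, pandas 2.3.3 and numpy 2.4.6 under Python 3.11.15.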

Additional observations from a re-analysis of the deposited data

How the results depend on the processing

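With 1 library a side, neither biological spread nor depth can be told apart from the differences, and leaving out a library leaves no comparison. No paired analysis was possible because each group has 1 library and no replicate number. Of 10 alternatives, 2 were chosen after seeing the data; 50 of 83 values moved by less than their intervals or, for counts, less than 1.5 times. In the higher-scoring 50% of each list, 84.4% of control and 83.0% of hairpin 1 peaks had a counterpart, 9883 regions were shared, 2022 were in hairpin 1 and 1822 in the control alone, the median log2 width ratio was 0.033, promoter shares were 38.1% and 20.4% and median G+C 53.7% and 44.1% (hairpin 1 first). With that 50% set against the whole other list, 96.6% of control and 97.5% of hairpin 1 peaks had a counterpart and the regions alone numbered 292 in hairpin 1 and 403 in the control, both the reverse of the order in the whole lists, with promoter shares of 34.2% and 22.8%, median G+C of 52.0% and 44.2%, and 142 gained and 118 lost genes. Equal list lengths gave 78.4% for hairpin 1 peaks. Absence as no peak within 1 kb gave 79.6% and 78.2% (control first), and peaks under 5 kb 77.97% and 76.3%. Promoter shares were 12% and 9.61% with 2.5 kb on each side and 12.7% and 10.1% with all basic start sites. Peaks with no other peak of their list within 5 kb, added later, gave 77.9% and 76.9%, a ratio of 0.036 and 42.0% G+C in control regions.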

Other observations

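In windows of 1 Mb with at least 8 regions (1402 windows), some stretches held regions of 1 list almost alone; they were chosen after their values were seen. On chromosome 2, 205 to 206 Mb, 13 regions were in the control alone and 0 in hairpin 1 alone, 12 of them nearest to PARD3B, a polarity gene, and between the first and the last of them the second hairpin had 12 peaks. On chromosome 1, 196 to 197 Mb, 11 regions were in the control alone and 0 in hairpin 1 alone, 8 of them nearest to the potassium channel gene KCNT2. On chromosome 15, 73 to 74 Mb, the counts were 10 and 0, with 6 nearest to NEO1, the receptor neogenin.

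Other windows held a surplus of hairpin 1. On chromosome 1, 12 to 13 Mb, 13 regions were in hairpin 1 alone and 1 in the control alone, with 5 nearest to TNFRSF1B, a TNF receptor, and 3 to TNFRSF8, CD30. On chromosome 6, 15 to 16 Mb, the counts were 13 and 2, with 7 nearest to JARID2, a cofactor of Polycomb repressive complex, and 4 to DTNBP1. On chromosome 12, 125 to 126 Mb, they were 12 and 2, with 8 nearest to SCARB1, the HDL receptor.

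On chromosome X, 13 regions in the control alone lay in 45305 bp (114960203 to 115005507), with 0 hairpin 1 peaks and 15 peaks of the second hairpin. Their centres were a median of 3058.5 bp apart (2794 to 5942), their G+C was 67.3% to 70.6%, and a median of 100% of their 25-base words occurred in another region of the run, so these 13 regions share sequence and are not independent. On the mitochondrial sequence the control listed 1 peak of 4580 bp at percentile 14.7, and hairpin 1 and the second hairpin listed none.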
